A study of Mus musculus with 4 samples.

Results

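T cells of the healing fracture callus were taken as the barcodes of both callus libraries that held at least 2 unique molecular identifiers (UMIs, counts of single captured transcripts) of Cd3d, Cd3e and Cd3g together. Barcodes were kept first if they had at least 500 UMIs, at least 200 genes and at most 10% mitochondrial UMIs. A T cell barcode further held no UMI of Cd79a, a B cell receptor subunit, less than 1% of its UMIs from Col2a1, the main collagen of cartilage, and less than 1% from S100a8 and S100a9, which fill neutrophils. By this rule 407 of 14451 callus barcodes were T cells, 180 in the control callus and 227 in the GC callus, out of 23216 barcodes kept in all 4 libraries.

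The series profiled single cells of fracture callus and of trabecular bone from male C57BL/6J mice, aged 20 weeks, given the glucocorticoid (GC) prednisolone at 6.25 mg/kg/d or a control treatment, in order to follow how GCs change the cells that build and resorb bone. Each of the 4 combinations (callus control, callus GC, trabecular control, trabecular GC) is 1 library of digested tissue taken at week 2. By the labels GC came from a slow-release pellet and control mice carried a placebo pellet, while by the study's methods mice with fractures were injected daily. How many mice entered a library is not given in the sources used here. With 1 library per group no difference has a replicate check. Every interval below is a 95% interval that covers counting error only, and fewer T cells in the tissue cannot be told apart from fewer T cells recovered by digestion.

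T cells recognise peptides through a receptor of paired alpha and beta chains, or gamma and delta chains, which signals through the CD3 subunits. Killer T cells carry the coreceptor CD8 and helper T cells carry CD4. T cells gather in a fracture callus early in repair and can act on bone through factors such as RANKL (gene Tnfsf11), tumor necrosis factor and interferon gamma, while GCs act through the receptor Nr3c1, damp cytokine genes and kill sensitive lymphocytes.

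The 3 CD3 genes lie side by side on chromosome 9 of the mouse assembly GRCm38 (Cd3g from 44969572 to 44980431, Cd3d from 44981786 to 44987339, Cd3e from 44998740 to 45009627). The beta chain constant genes lie on chromosome 6 (Trbc1 from 41538218 to 41539881 and Trbc2 from 41546730 to 41548352), and the delta and alpha constant genes on chromosome 14 (Trdc from 54142851 to 54148868 and Trac from 54220521 to 54224206). Since the CD3 genes chose the cells, their levels here are a description. Just inside the threshold, with 2 CD3 UMIs, were 70 control and 84 GC barcodes, of which 91.4% and 89.3% held a UMI of Trac, Trbc1 or Trbc2. Just outside it, with 1 CD3 UMI, were 98 control and 102 GC barcodes, of which 79.6% and 78.4% held such a UMI. Of barcodes with 3 or more CD3 UMIs, 96.4% and 96.5% did. The alpha and beta chain genes, which the rule did not use, thus marked most of the barcodes on either side of the threshold.

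All 20 genes of a T cell marker list were detected in both callus libraries. The most abundant of them was Trbc2, with 485 UMIs in control and 410 in GC members. Cd79a (by rule), Ms4a1, Pax5 and Vpreb3, which mark B cells, were at 0 in both libraries. Rag1, Rag2 and Dntt, which rearrange receptor genes in developing thymocytes, had no UMI either, and a count of 0 allows up to 3 UMIs. Summed over 12 B cell markers, members held 389 CPM (a gene's UMIs scaled to all UMIs of the barcodes in question) in control, Cd74 leading, and 118 CPM in GC, Ighm leading. Of 11 markers of natural killer (NK) and innate lymphoid cells 4 were at 0 in control (Ncr1, Klrb1c, Klra8 and Klra4) and 2 in GC (Ncr1 and Klra8), and together they held 739 and 601 CPM, with Rora leading in both. Several of these, Rora and Gata3 among them, are also used by T cells. No T cell barcode was shared between any pair of libraries.

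Most UMIs of Trdc, the delta chain constant gene, lay outside T cells in callus. Of 1225 Trdc UMIs in the kept barcodes of the control callus, 43 lay in T cells and 1117 (91.2%) in the 2682 barcodes with at least 1% Col2a1 UMIs, which were deep (median 24331 UMIs). In GC callus 26 of 1657 lay in T cells and 1464 (88.4%) in the 3034 such cartilage barcodes (median 9962 UMIs). As a level, Trdc stood at 64.0 CPM in T cells against 16.3 in cartilage barcodes of the control callus and at 29.3 against 34.7 in GC callus. Trac, by contrast, stood at 378 and 380 CPM in control and GC T cells against 10.4 and 9.53 CPM in cartilage barcodes, although 60.9% and 37.1% of its callus UMIs lay in the latter. In trabecular bone, where no barcode reached 1% Col2a1, 86.0% and 89.1% of Trdc UMIs lay in T cells.

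The T cell share was higher in GC than in control trabecular bone, and in callus the intervals of GC and control overlapped. T cells were 2.52% of control callus barcodes (interval 2.17 to 2.91) and 3.10% of GC callus barcodes (2.72 to 3.53), a ratio of 1.23 (1.01 to 1.503). That interval included 1 with at least 1 CD3 UMI required (0.980 to 1.36), with at least 3 (0.981 to 1.64), with no exclusions (0.932 to 1.37) and without the 11 barcodes described below (0.995 to 1.49). It lay above 1 with at most 5% mitochondrial UMIs (1.03 to 1.58) and with at least 1000 UMIs (1.05 to 1.56). The same held with doublets removed (1.02 to 1.54) and among barcodes with a Ptprc UMI (1.05 to 1.59). In trabecular bone they were 0.955% (38 cells) in control and 3.26% (156 cells) under GC, a ratio of 3.41 (2.38 to 4.998). B cells, defined by at least 2 Cd79a UMIs and no CD3 UMI, went the other way in both tissues, from 422 to 197 cells in callus (share ratio 0.455, 0.382 to 0.540) and from 311 to 24 cells in trabecular bone (0.0641, 0.0405 to 0.0972). NK cells were 56 in control callus and 37 in GC callus (share ratio 0.644, 0.413 to 0.993), and 20 and 35 in trabecular bone (1.45, 0.816 to 2.66). Among barcodes with a UMI of Ptprc, the pan-leukocyte gene, T cells were 6.53% in control and 8.42% in GC callus. The callus ratio depended on how much cartilage or neutrophil RNA a barcode was allowed to hold. Col2a1 or S100a8 and S100a9 made up at least 0.1% of UMIs in 153 of 180 control T cells but in 36 of 227 GC T cells, and in 373 of 422 control B cells but 67 of 197 GC B cells. With both limits at 0.1% instead of 1%, 27 control and 191 GC T cells were left and the ratio was 6.90 (4.59 to 10.7). The part of these transcripts in the ratio was not tested.

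**Figure D1:**
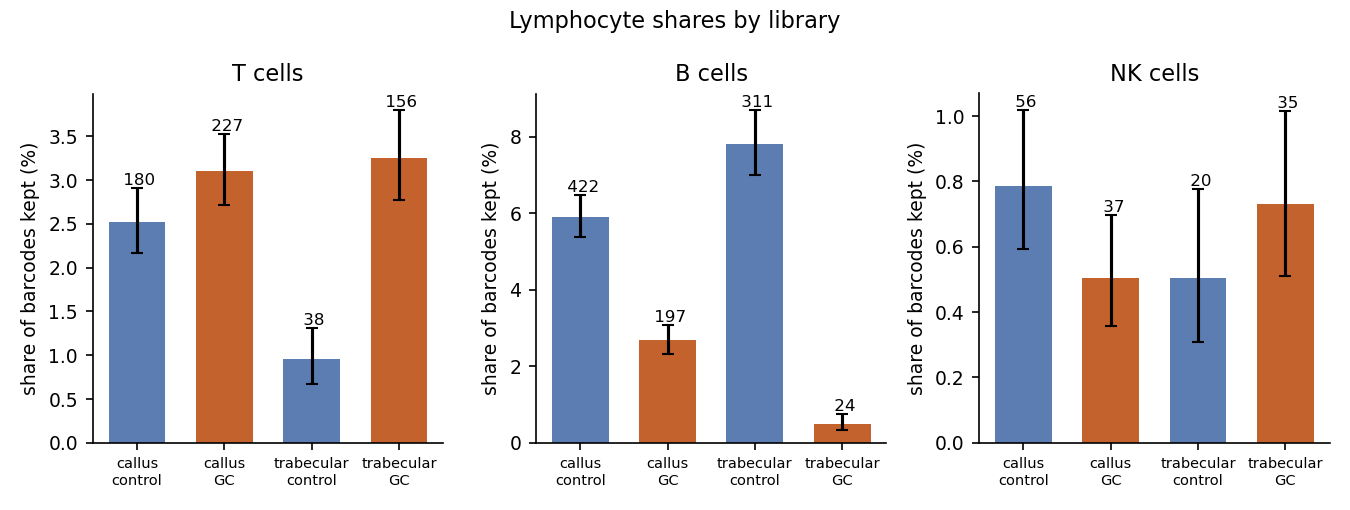
Share of kept barcodes (%, y axis) called T, B or NK cells in each of the 4 libraries (x axis, control in blue and GC in orange). Bars are shares, error bars 95% Clopper-Pearson intervals for counting error and numbers above the bars cells; the T cell share was 2.52% and 3.10% in callus but 0.955% and 3.26% in trabecular bone, while B cell shares were lower under GC in both tissues.

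Callus T cells were shallower than those of trabecular bone. The median member held 3201.5 UMIs in control callus and 3304 in GC callus, against 6271.5 and 6646 in trabecular control and GC, and the members summed to 671515 and 888749 UMIs in callus. Among callus members, 4 control and 7 GC barcodes (11 in all) took at least 2% of their UMIs from markers of B cells, macrophages, neutrophils, cartilage, bone, red cells, osteoclasts or endothelium. The 7 GC members held 2156 to 28015 UMIs each, a median of 16000 against 3293.5 for the rest, and supplied 11.3% of all UMIs of the GC members. The 4 control members supplied 3.82%. A doublet score against simulated pairs of barcodes marked 9 control and 7 GC members, among them 2 of the 4 control and 2 of the 7 GC barcodes rich in other markers. Levels below are with all members unless the text says otherwise. Values without these 11 are given for some lists and genes, not for every level.

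Most callus T cells with a coreceptor transcript carried Cd8a or Cd8b1. At their own depth 62 of 180 control members and 73 of 227 GC members had a UMI of Cd8a or Cd8b1 and none of Cd4. Cd4 alone was seen in 13 and 10 members, and no member had both. After every member was thinned to 1000 UMIs, CD8 genes were seen in 32 of 179 control members (17.9%, 12.6 to 24.3) and 34 of 227 GC members (15.0%, 10.6 to 20.3), and Cd4 in 5 (2.79%, 0.913 to 6.40) and 4 (1.76%, 0.482 to 4.45). The intervals of control and GC overlapped for both coreceptors. No B cell of either callus library had a Cd8a, Cd8b1 or Cd4 UMI at the same depth, over 415 control B cells (median 2155.5 UMIs before thinning) and 191 GC B cells (median 1969). More than 3 in 4 thinned members, 142 and 189, showed neither coreceptor. At their own depth 105 control and 144 GC members showed neither, and in the text below these are called unassigned rather than double negative. How many of them carried a coreceptor transcript that was not captured was not tested. In thinned trabecular T cells the CD8 share was 27.0% (10 of 37) in control and 23.1% (36 of 156) under GC.

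Ccl5, a chemokine stored and released by memory and killer T cells, separated the coreceptor classes. Ccl5 UMIs per member ranged from 0 to 170 in control callus with a median of 15, and from 0 to 63 in GC callus with a median of 13. It was at 0 in 51 of 180 control and 55 of 227 GC members, and 76 members in each library held 20 or more UMIs. The other 53 control and 96 GC members held at least 1 UMI but fewer than 20. Among CD8 members 10 of 62 control and 13 of 73 GC cells had no Ccl5 UMI. Among unassigned members 32 of 105 and 34 of 144 had none. Among Cd4 members 9 of 13 and 8 of 10 had none, and the highest Cd4 member held 1 UMI in control and 10 in GC. After thinning, 66.5% of control and 70.0% of GC members had a Ccl5 UMI, against 2.17% and 0.524% of callus B cells. Summed over both callus libraries, Ccl5 stood at 5347 CPM in CD8 members, 4378 CPM in unassigned members and 159 CPM in Cd4 members, so the unassigned members were close to the CD8 members for this gene.

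**Figure D2:**
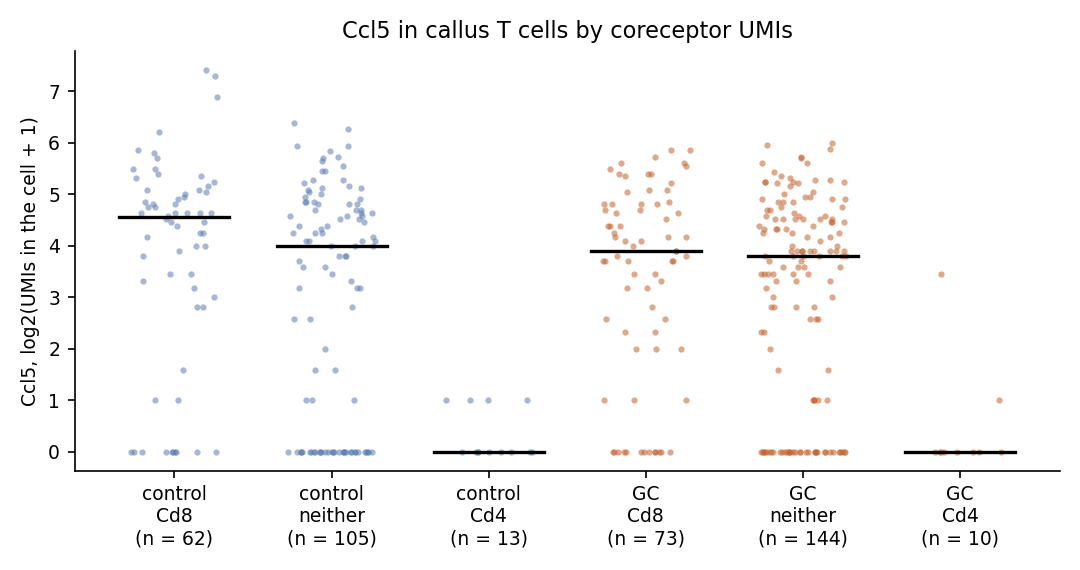
Ccl5 UMIs per callus T cell, as log2(UMIs + 1) on the y axis, by library and by which coreceptor had a UMI at the cell's own depth (x axis, number of cells below). Points are cells and bars medians; the CD8 and unassigned (neither) classes hold cells at 0 and cells far above it in both libraries, whereas 9 of 13 control and 8 of 10 GC cells with Cd4 are at 0.

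Other genes also differed between the CD8 members (62 and 73) and the Cd4 members (13 and 10) of callus, pooled over both libraries and read at their own depth. S100a4, a calcium-binding protein of memory cells, stood at 1419 CPM in Cd4 members and 248 CPM in CD8 members. Ramp3, a receptor activity-modifying protein, stood at 1017 and 147 CPM, and Lgals1, which encodes galectin-1, at 1027 and 210 CPM. Maf, a transcription factor of helper cells, stood at 466 and 67.0 CPM, and Icos, a costimulatory receptor, at 498 and 167 CPM. The Cd4 members were thus higher for these 5 genes, with few cells behind the values (96 Ramp3 UMIs in all). Depth was uneven, since the deepest Cd4 member held 15177 UMIs in control and 11687 in GC, against medians of 2718 and 2730.5. Single deep cells can therefore weigh heavily in these sums, and the spread over cells is not given here. The CD8 members were higher for Nkg7, a cytotoxic granule protein (154 against 10.6 CPM), Selplg, which encodes a selectin ligand (333 against 74.1 CPM), and Txk, a kinase of the T cell receptor pathway (358 against 63.5 CPM). Ikzf2, which encodes Helios, was highest in unassigned members, at 403 CPM against 109 in CD8 and 53.0 in Cd4 members. Foxp3, the regulator of regulatory T cells, had 6 UMIs in control and 9 in GC callus, in 2 and 5 cells.

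Cytokine transcripts that act on bone were near the limit of detection. Tnfsf11 had 8 UMIs in each callus library, Tnf had 8 in control and 7 in GC, and Ifng had 7 and 11. Il17a, Csf2, Il4 and Il6 had none in either library, where a count of 0 allows up to 3 UMIs. Tgfb1, which encodes transforming growth factor beta 1, was detected throughout, at 231 CPM in control and 210 CPM in GC. Fasl, a death ligand, stood at 64.0 CPM in control and 100 CPM in GC (43 and 89 UMIs, ratio 1.56, 1.08 to 2.31). Osm, which encodes oncostatin M, went from 36 to 8 UMIs (ratio 0.168, 0.0674 to 0.367). Differences in Tnfsf11, Tnf and Ifng were not detectable at this depth. Receptor variable segments were too sparse for clonality, since Trbv genes gave 13 UMIs in control and 18 in GC callus.

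GC and control callus T cells were compared by summed counts per library, as log2 ratios of CPM with 5 CPM added, over the 4142 genes with at least 50 UMIs in both libraries together. The median gene stood at a log2 ratio of −0.16, so ratios are read against that value. At least 2-fold higher in GC were 73 genes (1.76% of those tested) and at least 2-fold lower 104 (2.51%). Without the 11 members, 30 of 3859 genes (0.777%) were at least 2-fold higher and 105 (2.72%) lower. Fewer genes were higher with those members left out, while the number lower hardly moved. The split depended on scaling: of the genes past 2-fold 41.2% were higher with totals, 60.0% with TMM factors and 70.1% with DESeq2 size factors, which put the median gene at −0.03 and 0.03.

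Most T cell markers stood lower in GC members, but Trac, the alpha chain constant gene, did not. Of the 17 T cell markers left when the 3 CD3 genes of the rule are set aside, 16 had a log2 ratio below 0, with a median of −0.50, against 65.04% of all genes and a median of −0.16. Without the 11 members 13 of 17 were below 0, with a median of −0.40, against 63.4% of all genes and −0.14. Trbc1, Cd5 and Trdc were at least 2-fold lower with all members, against 2.51% of all genes. Without the 11 members the list held 2 such genes rather than 3, against 2.72% of all genes. Trdc rested on 43 control and 26 GC UMIs. Its level in GC T cells (29.3 CPM) lay below that in GC cartilage barcodes (34.7 CPM). The part of cartilage RNA in the Trdc values was not tested. All 16 measured genes of the receptor signalling list were below 0 (median −0.45), and 13 of 16 without the 11 members (median −0.35), against 65.04% and 63.4% of all genes. This list shares genes with the T cell marker list, Cd5, Lat, Zap70 and Skap1 among them, so the counts of these lists are not independent. Trbc1 stood at 555 CPM in control and 195 CPM in GC (373 and 173 UMIs, ratio 0.350, 0.291 to 0.421). The number of members with a Trbc1 UMI was 104 of 180 and 80 of 227, and no single member held more than 17. Trbc2 stood at 722 and 461 CPM (ratio 0.639, 0.559 to 0.730), while Trac was level at 378 and 380 CPM (ratio 1.01, 0.852 to 1.19). Trbc1 and Trbc2 are near-identical, so reads may have been split between them uncertainly. The CD3 genes chose the cells, so their levels are a description only. Cd3d stood at 408 and 380 CPM, Cd3e at 405 and 342 CPM and Cd3g at 234 and 132 CPM.

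Of the 16 receptor signalling genes 2 were at least 2-fold lower with all members, Cd5 and Themis, against 2.51% of all genes. Cd5, a receptor that restrains the signal, stood at 131 CPM in control and 47.3 CPM in GC (ratio 0.361, 0.244 to 0.527). Themis, an adaptor needed for thymocyte selection, had 38 and 18 UMIs (log2 ratio −1.29). From other lists, Ctla4, Icos and Cxcr3 are named because they were also at least 2-fold lower. Ctla4, an inhibitory receptor, stood at 92.3 and 42.8 CPM. Icos had 170 and 100 UMIs, of which 26 control UMIs came from 1 cell, and Cxcr3, a receptor for interferon-induced chemokines, stood at 113 and 47.3 CPM. Ctla4 fell short of 2-fold (log2 ratio −0.92) without the 11 members. In trabecular T cells the GC over control log2 ratios of Cd5, Themis, Ctla4, Icos and Cxcr3 were 0.07, 1.24, −0.19, 0.90 and −0.16, with 7 and 95 UMIs of Themis. Of other genes of the receptor signalling list, Lat, an adaptor, stood at 261 and 231 CPM and Zap70, a kinase, at 56.6 and 54.0 CPM.

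Of 12 cytotoxic genes measured, 7 were above 0 and 2 were at least 2-fold lower (median 0.07), against 34.96% of all genes above 0 and 2.51% at least 2-fold lower. The count was also 7 of 12 without the 11 members, with a median of 0.22. Nkg7 stood at 153 CPM in control and 47.3 CPM in GC (103 and 42 UMIs, ratio 0.308, 0.210 to 0.445), in 46 of 180 and 36 of 227 members. Gzma, which encodes granzyme A, had 90 and 17 UMIs, but 61 of the 90 lay in 1 control cell. Ccl5 stood at 5173 and 3931 CPM (ratio 0.760, 0.725 to 0.797). Ctsw, a cathepsin of killer cells, stood at 98.3 and 140 CPM (ratio 1.42, 1.04 to 1.94), and Ccl4, a chemokine, at 38.7 and 68.6 CPM. Gzmb and Prf1, which encode granzyme B and perforin, had at most 21 UMIs in either library.

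The glucocorticoid response list stood slightly above the median gene in callus T cells. With all members 12 of 17 measured genes were above 0 and 1 was at least 2-fold higher, with a median of 0.19. Of all genes 34.96% were above 0 and 1.76% at least 2-fold higher, with a median of −0.16. Without the 11 members 8 of 16 were above 0 and 1 was at least 2-fold higher, with a median of 0.08. Of all genes 36.6% and 0.777% were, with a median of −0.14. Mt2, a metallothionein, had 19 UMIs in control and 83 in GC (log2 ratio 1.56, and 1.10 without the 11). Sgk1, a kinase whose gene is a classical GC target, stood at 118 and 204 CPM with all members but at 115 and 114 CPM without the 11, since 50.3% of its GC UMIs came from the 7 GC members. Tsc22d3, which encodes GILZ, stood at 194 and 204 CPM (ratio 1.05, 0.835 to 1.33). Fkbp5, a chaperone of the receptor, had 7 UMIs in 7 control members and 19 in 19 GC members (ratio 2.05, 0.826 to 5.77). Bcl2l11, which encodes the death factor BIM, stood at 371 and 506 CPM (ratio 1.37, 1.17 to 1.601), and Btg1, an antiproliferative gene, at 1826 and 2487 CPM (ratio 1.36, 1.27 to 1.46). Nr3c1 itself stood at 255 and 169 CPM (ratio 0.663, 0.529 to 0.830). On the lower side were Tgfbr2, a receptor for transforming growth factor beta, at 231 and 140 CPM (ratio 0.604, 0.473 to 0.770), Dusp1, a phosphatase, at 167 and 122 CPM, Il7r at 259 and 208 CPM, Klf2, a regulator of T cell traffic, at 421 and 371 CPM, and Per1, a clock gene, at 77.4 and 72.0 CPM. The list thus held genes on both sides of 0 and targets whose interval included equal levels (Tsc22d3, Fkbp5, Klf2 and Per1).

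The receptor binds an inverted repeat, AGAACA and TGTTCT with any 3 bases between them, which reads the same on both strands. Within the 250 bases upstream of transcript starts in the RefSeq promoter windows of GRCm38, it occurs in 0.00913% of 32851 windows, and of the 21 list genes matched to 33 windows only Sgk1 holds it, in 1 of its 6 windows. That window (chr10:21993640-21993889, plus strand) is shown because it carries the full repeat, in capitals, 189 bases before an internal transcript start. It lies inside the GENCODE M21 gene, which spans 21882184 to 21999903:
Sgk1: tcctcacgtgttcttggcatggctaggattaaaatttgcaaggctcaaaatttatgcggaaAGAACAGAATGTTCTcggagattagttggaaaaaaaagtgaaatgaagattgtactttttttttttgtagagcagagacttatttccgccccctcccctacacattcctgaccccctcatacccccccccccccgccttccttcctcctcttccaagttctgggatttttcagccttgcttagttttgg
A match describes the letters of this window, and other genes may be bound outside theirs.

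Genes with the largest ratios showed where the 7 GC members weighed most. The 10 highest among genes of at least 100 CPM, with markers of other cell types set aside, were Cxcl14, Mgp, Bmp2, Lox, Enah, Rbp4, Dcn, H1f0, Cst3 and Gpx3. Between 73.9% and 97.2% of their GC UMIs came from those 7 members. Mgp, which encodes matrix Gla protein of cartilage, had 136 control and 1531 GC UMIs, 981 of them in 1 cell, and its log2 ratio of 3.06 was −1.46 without the 11 members. Cst3 went from 1.92 to −1.03 and Dcn, which encodes the matrix proteoglycan decorin, from 2.05 to −0.92. Summed over members, bone and stromal markers stood at 2823 CPM in control and 10842 CPM in GC (most abundant in GC, Spp1 with 4215 UMIs), and at 2688 and 1532 CPM without the 11. Summed chondrocyte markers stood at 4244 and 5601 CPM with all members and at 4269 and 1402 CPM without the 11. Gene by gene 8 of the 11 measured were below 0 with all members (median −0.59), against 65.04% of all genes (median −0.16). Without the 11 members all 11 measured markers were below 0 (median −1.46), against 63.4% of all genes (median −0.14). Macrophage markers stood at 941 and 187 CPM, with Lyz2 most abundant and Adgre1 at 0 in GC, and at 494 and 202 CPM without the 11.

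Of the 10 lowest genes, Ifitm3, Cxcl2, H2-Eb1, Gzma, Thbs1, Ier3, Gm45716, Hist1h2ap, Nkg7 and Trbc1, several rested on few control cells. Ifitm3, an interferon-induced membrane protein, had 93 control and 10 GC UMIs in 13 and 5 cells. Cxcl2, a neutrophil chemokine, had 213 control UMIs in 25 cells, 73 of them in 1. H2-Eb1, a class II antigen-presenting gene, had 67 of its 79 control UMIs in 1 cell. Ier3, an immediate early gene, had 84 and 24 UMIs in 32 and 22 cells. Macrophage marker sums were also lower in GC, and their part in these values was not tested. Trbc1, Gm45716 and Nkg7 were spread over the most control members of the 10, at 104, 48 and 46.

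**Figure D3:**
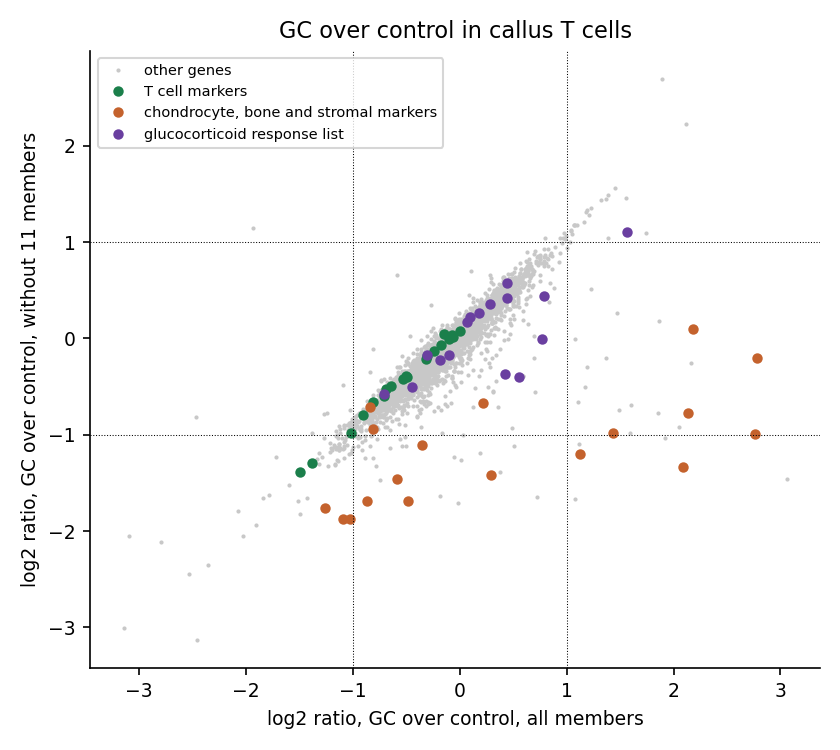
Log2 ratio of GC over control callus T cells (5 CPM added) for each gene with all members (x axis) and without the 11 members rich in other-cell-type markers (y axis). Grey points are other genes, dotted lines mark 2-fold; of the 17 T cell markers other than the CD3 genes that chose the cells, 16 lie below 0 on x and 13 on y, whereas cartilage, bone and stromal markers with x above 1 lie between −1.33 and 0.10 on y.

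Without the 11 members, the genes furthest above 0 in GC were Gm26917, Epm2aip1, Slc38a2, AY036118, Tle4, Cnot3, BE692007, Gm11808, Luc7l3 and Tmsb10. Gm26917 and AY036118 are annotated in GENCODE M21 as long noncoding RNAs, on opposite strands of chromosome 17 (39843013 to 39846341 and 39847113 to 39848035). Which transcripts their reads came from was not tested. Without the 11 members Gm26917 stood at 630 CPM in control and 1868 CPM in GC, and AY036118 at 331 and 915 CPM. Slc38a2, an amino acid transporter, stood at 243 and 679 CPM. These 3 genes were also higher in the other lymphocytes of GC callus. Gm26917 had GC over control log2 ratios of 0.86 in B cells and 1.98 in NK cells, AY036118 had 1.38 and 1.30, and Slc38a2 had 1.57 and 0.93. The direction was shared by the 3 lymphocyte types. Ribosomal protein genes took 29.2% of UMIs in control and 33.6% in GC callus T cells with all members, and 29.7% and 35.1% without the 11. In B cells the shares were 24.1% and 24.97%, and in NK cells 22.6% and 26.0%.

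Junb, a subunit of the AP-1 transcription factor, stood at 748 CPM in control and 330 CPM in GC (502 and 293 UMIs, ratio 0.441, 0.381 to 0.510), and a Junb UMI was seen in 47.5% of thinned control and 23.8% of thinned GC members. Thinned B cells showed Junb in 51.6% and 27.2%, so Junb was lower in both lymphocyte types. Of the 15 immediate early genes 8 were below 0 with all members (median −0.11) and 13 without the 11 (median −0.55), but the median with all members was 0.03 with TMM and 0.09 with DESeq2 scaling. Glycolysis genes were below 0 in 10 of 13 cases (median −0.24), near the 65.04% and −0.16 of all genes. This became 11 of 13 without the 11 members (median −0.41), against 63.4% and −0.14 for all genes. The glycolysis genes included Pkm, the last enzyme of the pathway (287 and 206 CPM), and Gapdh (639 and 506 CPM). Hk2, a hexokinase, stood above 0 at a log2 ratio of 1.47, but at 0.26 without the 11 members.

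The same contrast in trabecular T cells gave other values for several lists. The 7 measured cell cycle genes were all below 0 in callus (median −0.45), where 65.04% of all genes were. This became 5 of 7 without the 11 members (median −0.11, near the −0.14 of all genes). The 13 measured in trabecular T cells were all above 0, 10 of them at least 2-fold higher (median 1.81). Of all 3404 genes measured in trabecular T cells 47.8% were above 0, 4.0% were at least 2-fold higher and 2.09% at least 2-fold lower. Stmn1, a microtubule regulator of dividing cells, had 98 control and 72 GC UMIs in callus but 6 and 366 in trabecular bone, where the control library held 38 T cells. Top2a, a topoisomerase of dividing cells, had 41 and 29 UMIs in callus and 1 and 142 in trabecular bone. In callus, Mki67 UMIs lay in 8 control and 5 GC cells. Il7r, the receptor for the survival cytokine interleukin 7, stood at 259 and 208 CPM in callus and 208 and 510 CPM in trabecular bone, and Ccr7, a lymph node homing receptor, at 165 and 140 CPM in callus and 106 and 266 CPM in trabecular bone. With 1 library in each group, whether the contrast differs between tissues was not tested.

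**Figure D4:**
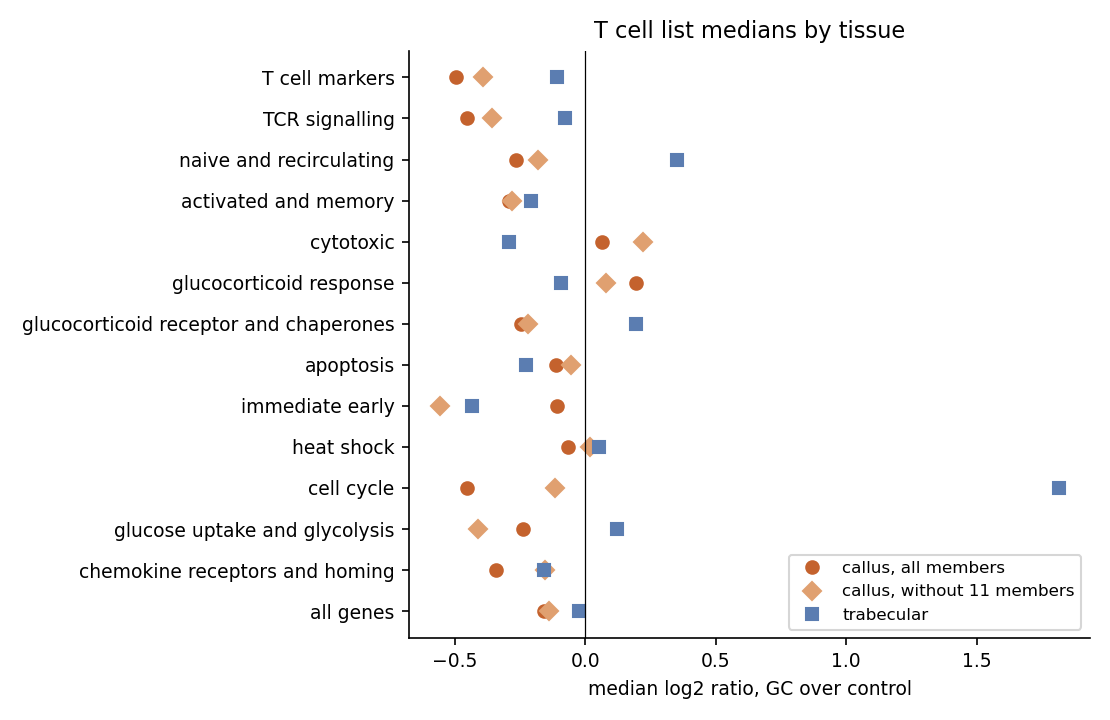
Median log2 ratio of GC over control (x axis) for each gene list with at least 5 measured genes (y axis), in callus T cells with all members (circles), callus without 11 members (diamonds) and trabecular T cells (squares). The cell cycle median is −0.45 in callus and 1.81 in trabecular T cells; the receptor signalling medians are −0.45 and −0.35 in the callus sets and −0.08 in trabecular T cells, and the T cell marker list as drawn includes the CD3 genes that chose the cells.

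Callus and trabecular T cells were then compared within control and within GC libraries, pairs that share no library, without members rich in other markers. Of 2596 genes measured in both pairs, 231 were at least 2-fold higher in callus in both (8.9%) and 99 lower in both (3.81%). Markers of the tissue moved with this contrast. All 5 measured chondrocyte markers and all 6 measured bone and stromal markers were higher in callus T cells in both pairs, while all 5 neutrophil and all 4 erythroid markers were lower. Snorc and Mgp, both cartilage genes, had no UMI in trabecular T cells and 180 and 136 UMIs in control callus T cells. The part of such RNA in the values of other genes was not tested.

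Among T cell genes higher in callus in both pairs, Il2rb, the beta chain of the interleukin 2 and 15 receptors, stood at 1373 and 1094 CPM in callus control and GC against 564 and 418 CPM in trabecular control and GC. It was seen in 68.2% and 63.4% of thinned callus members, 43.2% and 25.6% of thinned trabecular T cells, and 0.723% and 2.62% of thinned callus B cells. S1pr1, which lets T cells leave tissue, stood at 892 and 1048 CPM in callus and 318 and 284 CPM in trabecular bone. Myb, a transcription factor of progenitors and memory T cells, stood at 373 and 445 CPM in callus and 42.4 and 60.5 CPM in trabecular bone. Cxcr6, a receptor that holds T cells in tissues, stood at 125 and 95.2 CPM against 50.9 and 23.7 CPM. For these 4 genes both callus values lay above both trabecular values. Of 19 measured activated and memory genes, 3 were higher in both pairs, Il2rb and Cxcr6 among them, and 3 lower in both (Cd69, Crip1 and Anxa2), against 8.9% and 3.81% of all genes.

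Lower in callus T cells in both pairs were Nkg7 (155 and 50.8 CPM against 870 and 735 CPM), Ly6c2, a surface protein that memory CD8 cells and monocytes carry (180 and 214 CPM against 1086 and 1011 CPM), Thy1, the pan-T cell antigen (107 and 110 CPM against 310 and 342 CPM), and Skap1, an adaptor of receptor signalling (91.4 and 62.2 CPM against 361 and 268 CPM). Of 10 measured cytotoxic genes 3 were lower in both pairs and none higher, against 3.81% and 8.9% of all genes. NK cells went the same way for Nkg7, with callus over trabecular log2 ratios of −1.85 in control and −2.43 in GC. In callus B cells S1pr1 was also higher, at 1.24 in the control pair and 3.197 in the GC pair. The GC pair rests on 24 trabecular B cells. Myb was lower in callus B cells in the control pair, at −1.75. After thinning, Myb was seen in 21.8% of trabecular and 2.65% of callus control B cells. Whether B cell maturity differed between the tissues was not tested. The directions of Nkg7 in NK cells and of S1pr1 in B cells were thus shared, while that of Myb in control B cells was not.

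Immediate early genes were the list with the most genes lower in callus, 7 of 13 in both pairs (Fosb, Jun, Junb, Jund, Nr4a1, Ier2 and Dusp2) and none higher, against the 3.81% over all genes. Junb stood at 754 and 299 CPM in callus control and GC against 3530 and 2197 CPM in trabecular control and GC. Jund stood at 415 and 280 CPM against 2168 and 1792 CPM. Fosb stood at 71.2 and 71.1 CPM against 547 and 499 CPM, and Nr4a1, a nuclear receptor induced by T cell receptor signals, at 37.2 and 66.0 CPM against 378 and 190 CPM. Every callus value of these 4 genes lay below every trabecular value. B cells gave callus over trabecular log2 ratios of −2.22 and −1.73 for Jund and −1.53 and −1.43 for Fosb, but 0.44 and −0.66 for Junb and 1.23 and 2.06 for Nr4a1. The second value for each gene, that of the GC libraries, rests on 24 trabecular B cells. Immediate early genes also respond to tissue digestion, and callus and trabecular bone were digested separately, so handling and tissue cannot be told apart here.

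**Figure D5:**
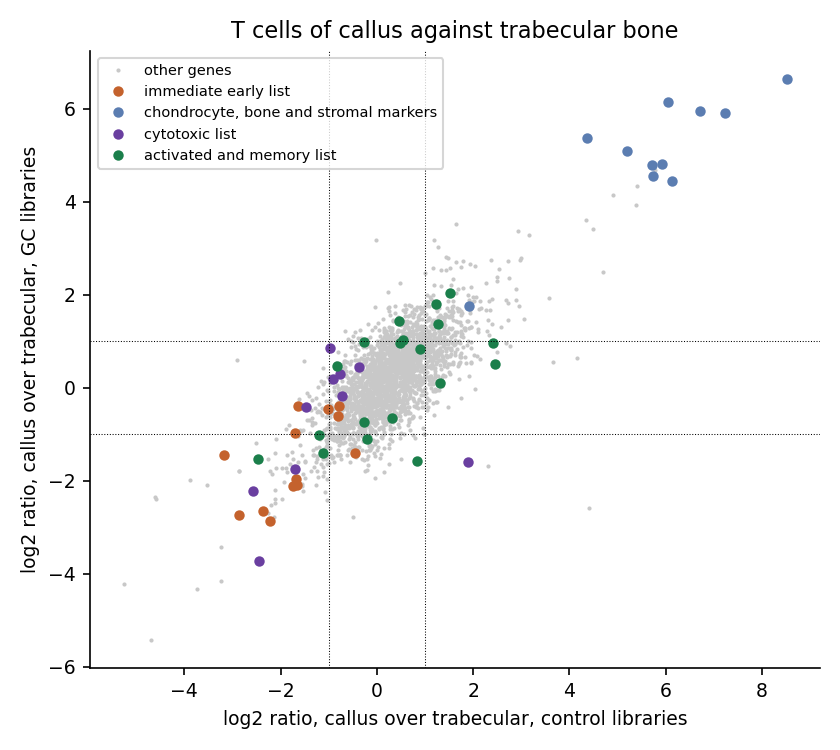
Log2 ratio of callus over trabecular T cells (5 CPM added, without members rich in other markers) for each gene in the control libraries (x axis) and the GC libraries (y axis). Dotted lines mark 2-fold; immediate early genes gather in the lower left, where 7 of 13 are past 2-fold in both pairs, and cartilage, bone and stromal markers lie at the upper right.

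Upstream windows of these genes were searched for the cyclic AMP response element TGACGTCA and its variant TGACGCA, which reads as TGCGTCA from the other strand. Both strands were searched. Of 13 list genes matched to RefSeq windows of GRCm38, Dusp1 and Btg2 hold TGACGTCA within 250 bases upstream, as do 1.55% of all 32851 windows. Fosb and Nr4a1 hold TGACGCA, as do 1.75% of all windows. Jun, Junb, Jund and Dusp2, which were also lower in both pairs, hold neither in their windows. The 4 genes with a match are shown, with matches in capitals. Their callus over trabecular log2 ratios in control and GC were −0.82 and −0.61 for Btg2, −0.80 and −0.40 for Dusp1, −2.86 and −2.73 for Fosb, and −3.18 and −1.45 for Nr4a1. The windows are chr1:134079156-134079405 (minus strand, Btg2), chr17:26508473-26508722 (minus, Dusp1), chr7:19310046-19310295 (minus, Fosb) and chr15:101266596-101266845 (plus, Nr4a1), each read toward the transcript start:
Btg2: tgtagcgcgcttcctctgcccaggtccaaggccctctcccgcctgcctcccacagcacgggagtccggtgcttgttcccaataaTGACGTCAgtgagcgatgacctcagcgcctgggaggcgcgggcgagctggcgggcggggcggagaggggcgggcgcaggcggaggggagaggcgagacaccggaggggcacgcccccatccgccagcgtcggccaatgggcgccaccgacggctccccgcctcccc
Dusp1: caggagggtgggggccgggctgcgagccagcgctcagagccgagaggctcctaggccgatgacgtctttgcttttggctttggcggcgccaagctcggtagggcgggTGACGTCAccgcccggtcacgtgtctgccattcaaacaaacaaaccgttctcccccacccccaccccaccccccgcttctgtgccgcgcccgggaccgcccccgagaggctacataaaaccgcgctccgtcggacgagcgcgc
Fosb: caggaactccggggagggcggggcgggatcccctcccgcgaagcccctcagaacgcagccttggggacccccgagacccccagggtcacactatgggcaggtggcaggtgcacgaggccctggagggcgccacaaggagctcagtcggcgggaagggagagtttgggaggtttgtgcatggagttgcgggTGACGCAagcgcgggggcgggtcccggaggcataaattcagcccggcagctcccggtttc
Nr4a1: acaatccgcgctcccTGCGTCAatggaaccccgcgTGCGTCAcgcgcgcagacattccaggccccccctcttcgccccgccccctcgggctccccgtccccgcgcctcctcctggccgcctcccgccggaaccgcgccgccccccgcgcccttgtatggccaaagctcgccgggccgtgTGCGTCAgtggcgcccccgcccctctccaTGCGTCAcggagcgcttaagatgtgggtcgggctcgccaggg
The match in Fosb starts 60 bases before the RefSeq transcript start, and Nr4a1 has 4 matches, from 235 to 42 bases before its own. The windows of Dusp1 and Nr4a1 lie inside the longer GENCODE M21 genes (26505590 to 26562128 on chromosome 17 and 101254269 to 101274795 on chromosome 15), upstream of an internal start. The matches describe the letters in these windows and say nothing of which factor binds there.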

How the data were processed

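The authors deposited 10x Genomics counts (UMIs per gene and barcode). The submitters' processing notes name Cell Ranger 5.0.1, Seurat 3.2.0 and mm10, while the file headers name Cell Ranger 4. The callus GC file lists 7762 barcodes, all with at least 500 UMIs, and the others list 6794880 each. The libraries summed to 95852254 (callus control), 64388215 (callus GC), 41239842 (trabecular control) and 45876714 UMIs (trabecular GC). Free RNA was not subtracted, and doublets were scored but not removed.

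From these counts members were selected by the rule above and summed per library in Python 3.11.15 (scipy 1.17.1). Log2 ratios used CPM plus 5, for genes of at least 50 UMIs. The minimum was 20 UMIs for NK cells and for callus over trabecular B cells of the GC libraries. The members and the gene lists were chosen with earlier results of these data known. With 1 library per group no test was run and no p-value computed. Shares have Clopper-Pearson, ratios exact conditional 95% intervals. Cells were thinned to 1000 UMIs where shares are compared (1 control member was shallower). The doublet score used simulated neighbours at a rate of 0.8% per 1000 cells. Alternatives used edgeR 4.0.16 (TMM) and DESeq2 1.42.0 size factors. Beyond the listed genes, the text names the 10 highest and 10 lowest GC over control ratios at 100 CPM or more, and CD8 over Cd4 gate genes by the same filter. Genes named in the comparison without 11 members and in that of tissues were ranked likewise, a choice made after their values were seen. Positions come from GENCODE M21 (all 452 identifiers matched) and promoter windows from RefSeq (GRCm38.p6). Calculations were tested on simulated counts. A few genes of the lists are not reported here by name, though list counts and medians include them.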

Additional observations from a re-analysis of the deposited data

Results flagged for a closer look

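Among lists with at least 5 genes measured in both tissues, markers of other cell types set aside, 7 had medians of opposite sign in callus and trabecular T cells for GC over control. With 1 library per group the difference was not tested, and the trabecular control library held 38 T cells. Callus minus trabecular, the difference of medians was −2.27 for cell cycle, −0.62 for naive and recirculating, −0.44 for glucocorticoid receptor and chaperone, −0.36 for glycolysis and −0.12 for heat shock genes. It was 0.36 for cytotoxic and 0.29 for glucocorticoid response genes. The callus medians of these lists lay between −0.45 and 0.19. These signs are about 0, while the median gene stood at −0.16 in callus and −0.02 in trabecular T cells. TMM and DESeq2 factors put the callus median gene at −0.03 and 0.03, so signs of callus medians near 0 depend on scaling. The heat shock median also changed sign within callus, from −0.06 to 0.02 without the 11 members.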

How the results depend on the processing

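No paired analysis was possible because each group has 1 library. The T cell share of control and GC callus was 3.90% and 4.50% with 1 CD3 UMI required, 1.54% and 1.95% with 3, 0.379% and 2.61% with Col2a1 and S100a8 plus S100a9 under 0.1% (ratio 6.90), and 6.53% and 8.42% of Ptprc barcodes. That of GC trabecular bone was 3.86% with 1 CD3 UMI and 2.73% at no more than 5% mitochondrial UMIs. The CD8 share of control and GC members was 34.4% and 32.2% without thinning, 11.7% and 10.1% at 500 UMIs, 26.6% and 22.2% at 2000 UMIs, and 8.38% and 2.20% where 2 UMIs were asked for. The Cd4 share was 7.22% in control without thinning and 0.556% at 500 UMIs, and 0.0% in control and 0.441% in GC where 2 UMIs were asked for. Genes at least 2-fold higher numbered 169 with a minimum of 20 UMIs, 45 with 100, 38 as a mean over cells, 16 in thinned cells, 115 with the 0.1% limit and 30 without the 11 members. Genes at least 2-fold lower numbered 242 with a minimum of 20 UMIs, 44 with 100, 39 with 20 CPM added, 60 with TMM, 43 with DESeq2 size factors, 29 in thinned cells and 66 with doublets removed. Changed sign: Cst3 (−0.20 with the 0.1% limit, −1.03 without the 11 members), Mgp (−1.78 and −1.46), Dcn (−0.042 as a mean over cells, −0.92 without the 11), Rbp4 (−0.25) and Fosb (−0.0031), both without the 11. The causes were not tested, apart from fewer genes being tested at higher minimums or in thinned cells. Leaving out the 11 members was chosen after seeing the data. The glucocorticoid response median stayed between 0.06 and 0.38. The low UMI number of single members limits coreceptor and cytokine calls.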

Other observations

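Of 10 apoptosis genes measured in callus T cells, 4 had a GC over control log2 ratio above 0 (median −0.11, but 0.03 with TMM and 0.08 with DESeq2 scaling), against 34.96% and −0.16 for all genes. Bbc3, which encodes the death factor PUMA, had 14 control and 41 GC UMIs (ratio 2.21, 1.18 to 4.39). Bcl2a1b, a survival gene with near-identical copies, stood at 198 and 94.5 CPM and Bax, a pore-forming death effector, at 101 and 60.8 CPM. Without members rich in other markers, Bcl2a1b fell short of 2-fold lower (log2 ratio −0.90, against −1.03 with all members). The Bbc3 ratio was then 1.70 (0.869 to 3.48), an interval that included equal levels, and Bax stood at 97.5 and 52.0 CPM. With all members Gata3, a helper cell regulator, had 35 and 81 UMIs (ratio 1.75, 1.16 to 2.68). Genes of fatty acid uptake and oxidation were mostly below the count minimum in callus T cells, with 4 of 20 measured, and Cd36, a fatty acid transporter, was at 0 in GC members.

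Trbv12-2 was the beta chain variable segment with the most UMIs in callus, 6 in control and 4 in GC. It had 2 and 3 in trabecular control and GC, level with Trbv19 in the latter.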
